A study of Mus musculus with 10 samples.

Results

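The transcripts of 10 nuclear receptor genes were followed in tumor-infiltrating CD8+ T cells. They encode the retinoic acid receptors alpha and gamma (Rara, Rarg), the retinoid X receptors alpha and beta (Rxra, Rxrb), the receptors for vitamin D (Vdr) and glucocorticoid (Nr3c1), the retinoid-related orphan receptor alpha (Rora), the liver X receptor beta (Nr1h2), the thyroid hormone receptor alpha (Thra) and the peroxisome proliferator-activated receptor delta (Ppard). The genes were chosen by name, with earlier results of these data known, and all 10 were found among the 34932 genes of the series. Pmel CD8+ T cells, whose transgenic T cell receptor recognizes the melanoma antigen gp100, were transduced with the retrovirus MSCV-IRES-Thy1.1 (MIT). The vector carried either the BATF reading frame (MIT-BATF) or no insert (MIT-Empty), and both forms mark transduced cells with Thy1.1. The strain label was Pmel-Thy1.2 in both groups. The cells, 5000000 per mouse, were given to recipients bearing B16-F10 melanoma, and 2000 live Thy1.1+ cells were sorted from each tumor on day 7 after transfer. Mice in the study's experiments were males and females of 8 to 12 weeks. RNA was sequenced from 5 libraries per group, each from its own mouse. The vector drives its insert from a viral promoter in whichever cells it enters, and not from the promoter of Batf.

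Nuclear receptors are transcription factors that bind small lipid-soluble ligands, or none that is known, and read DNA motifs built around the letters AGGTCA or, for the steroid receptors, related palindromes. Retinoic acid receptors, Vdr, thyroid hormone receptors, liver X receptors and peroxisome proliferator-activated receptors bind DNA as pairs with a retinoid X receptor, while the glucocorticoid receptor mostly acts as a pair with itself and Rora binds alone. In T cells, retinoic acid is known for inducing gut-homing receptors, glucocorticoids for restraining activation, and liver X receptors for controlling cholesterol export.

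Library totals were 10702908 to 34102346 estimated counts (median 20971113) under the label MIT-BATF and 6534648 to 21355922 (median 12239636) under MIT-Empty, and mitochondrial genes took 33.2% of counts in MIT-BATF replicate 1 against 11.5% to 23.1% in the others. The libraries were not all separate. In 4 of 45 pairs, one library was contained in another, with an excess in at most 0.661% of genes against at least 3.54% in every other pair. MIT-BATF replicates 4 and 5 lay within replicates 2 and 3, and MIT-Empty replicates 4 and 5 within replicates 2 and 3. The edgeR and DESeq2 fits and the ratios were therefore also run with each contained library subtracted from the one that holds it, which is called below the fit with shared reads counted once. The transduced gene did not separate the groups, since Batf ranged from 12.4 to 26.5 CPM (counts scaled to the library total by TMM) under the label MIT-BATF and from 13.5 to 50.8 CPM under MIT-Empty (log2 fold change -0.41, 95% interval -1.06 to 0.23, adjusted p = 0.522 by edgeR). It is not known if reads of the vector were assigned to Batf, so directions are given for libraries by their labels. Whether the labels were exchanged, which would turn every direction, was not tested. Thy1, which both vectors encode, was at 276 ± 77.9 and 263 ± 27.8 CPM (SD, n = 5). CD8 T cell markers, led by Cd3d, were high in all libraries, with a summed level of 4483 to 6590 CPM and 0 of 9 genes past the threshold in edgeR, DESeq2 or limma or at an unadjusted p under 0.05. Melanoma markers, led by Tyrp1, summed to 14.4 to 29.5 CPM under MIT-BATF and 39.7 to 1738 CPM under MIT-Empty, and all 6 tested of 8 were lower under MIT-BATF in edgeR and DESeq2, against 2 in limma. When shared reads were counted once, 2 of 5 were called by edgeR and 0 by DESeq2. Of the macrophage markers, led by Lyz2, 3 of 10 tested were lower in edgeR (25.4 to 81.0 against 42.4 to 282 CPM summed, which overlap), and 1 of 9 with shared reads counted once.

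The receptors differed widely in abundance, which is compared here in TPM, the authors' level per transcript length and library total. Nr1h2 led, with a mean of 8.82 TPM ± 1.67 (SD, n = 10 libraries), and lay above Rora in 10 of 10 libraries with no overlap of their ranges. Rora (3.16 ± 1.15 TPM) and Nr3c1 (2.71 ± 0.881 TPM) came next and could not be ranked by their spread, as Rora was the higher in 7 of 10 libraries. Rxrb followed at 1.15 ± 0.361 TPM, below Nr3c1 in 10 of 10 libraries, and then Rara at 0.949 ± 0.783 TPM. Rxrb exceeded Rara in 5 of 5 libraries labelled MIT-Empty but in 2 of 5 labelled MIT-BATF, so their order differed between the labels. The remaining receptors were near the detection limit, at 0.264 TPM for Rarg, 0.202 for Rxra, 0.160 for Ppard, 0.0851 for Thra and 0.0425 for Vdr, and the ranges of all neighbors among these 5 overlapped. Rarb and Rxrg, the remaining members of the retinoic acid and retinoid X receptor families, had 6 and 14 counts in all 10 libraries together. Rara exceeded Rarg in TPM in 5 of 5 libraries labelled MIT-BATF and in 3 of 5 labelled MIT-Empty. Under MIT-Empty their means were 0.433 and 0.346 TPM. In counts, MIT-Empty replicates 1 to 5 held 12, 33, 60, 3 and 17 for Rara against 1, 13, 18, 3 and 0 for Rarg. In MIT-Empty replicate 2, Salmon gave 2 and 3 of the 13 Rarg counts to Rarg-207 and Rarg-203. These transcripts have 374 and 311 bases, and a short length raises TPM. Mean Rarg was lower under MIT-BATF in TPM (0.18) but higher in CPM (0.60 against 0.40).

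**Figure D1:**
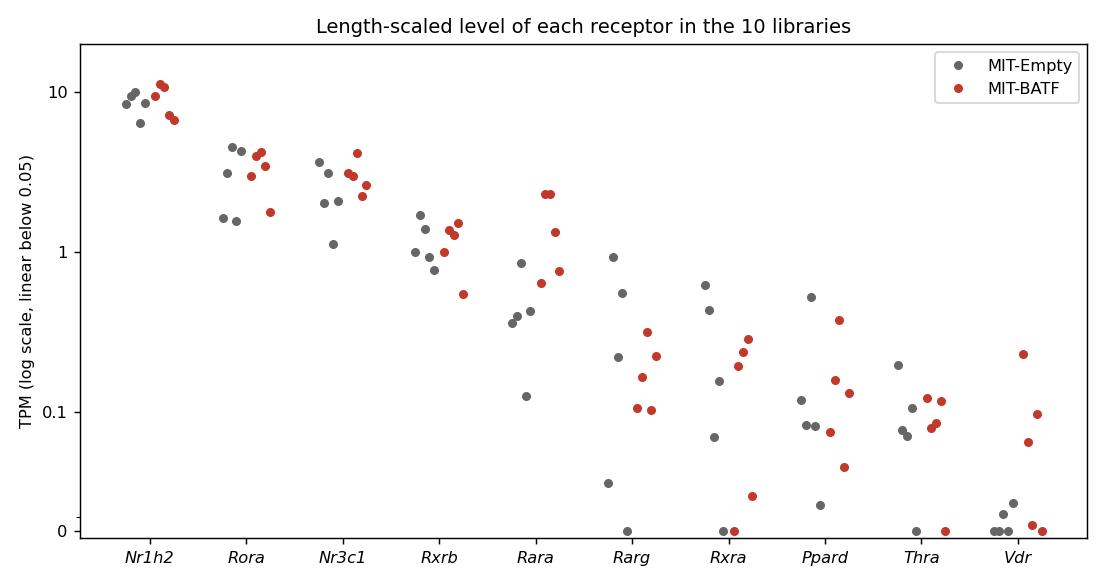
TPM of each receptor (vertical axis, log scale that is linear below 0.05) in every library, ordered by the mean over 10 libraries, with MIT-Empty in grey and MIT-BATF in red. Nr1h2 sits highest without overlap with Rora, and Rara spans 0.642 to 2.31 TPM under MIT-BATF and 0.126 to 0.851 TPM under MIT-Empty.

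Of the 10 receptors, 6 had enough counts to be tested and 1, Rara, passed the threshold of an adjusted p below 0.05, in the quasi-likelihood test of edgeR with p-values adjusted over all genes by Benjamini and Hochberg. Over all 11781 genes tested, 4.58% passed in either direction and 2.16% were higher under the label MIT-BATF. The median log2 fold change was 0.27 over the 6 tested receptors and 0.01 over all genes tested. With shared reads counted once, 5 receptors were tested and 0 passed, where 1.26% of all genes tested did. At an unadjusted p under 0.05 there was 1 receptor, Rara, in both sets of counts. DESeq2 called Rara in both (adjusted p = 0.0295 with shared reads counted once), and limma in the deposited counts. Between bulk samples, fewer cells of a type and less RNA per cell cannot be told apart.

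**Figure D2:**
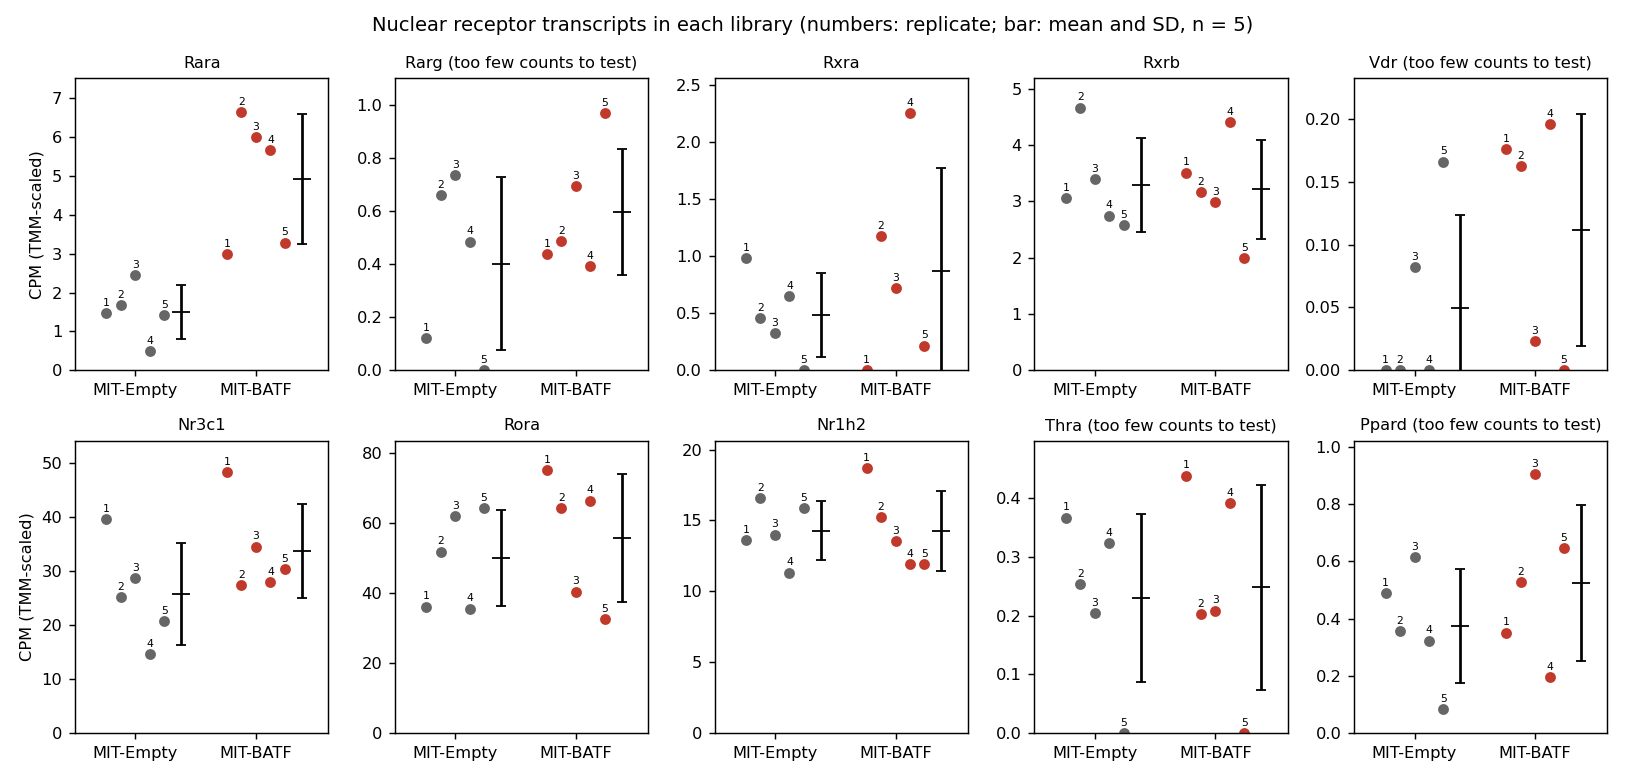
CPM of each receptor (vertical axis, linear from 0) in each library, with replicate numbers beside the points and the mean and SD of 5 libraries as a black bar cut at 0. Rara is the tested gene whose groups do not overlap (2.98 to 6.65 CPM under MIT-BATF, 0.485 to 2.46 CPM under MIT-Empty), while Rxrb, Rora, Nr3c1 and Nr1h2 overlap broadly.

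Rara encodes the retinoic acid receptor through which most effects of retinoic acid on T cells run. It lies on chromosome 11 of GRCm38 (mm10), from 98927818 to 98974942 on the forward strand. Replicates 1 to 5 labelled MIT-BATF held 34, 164, 259, 58 and 61 counts of Rara, or 2.98, 6.65, 6.003, 5.68 and 3.29 CPM. Those labelled MIT-Empty held 12, 33, 60, 3 and 17 counts, or 1.47, 1.67, 2.46, 0.485 and 1.41 CPM. Every library labelled MIT-BATF was above every library labelled MIT-Empty, which was so for 6.45% of all genes tested in one or the other direction. The means were 4.92 ± 1.67 and 1.499 ± 0.704 CPM (SD, n = 5), a 3.14-fold difference in the fit. The log2 fold change was 1.65 ± 0.378 (SE, 95% interval 0.84 to 2.46, adjusted p = 0.0220 by edgeR). The study named Rara among raised genes on these same libraries, so this direction is not independent evidence.

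The call for Rara depended on single libraries and on the shared reads, while its direction did not, and its adjusted p ran from 0.000520 to 0.391 over 24 alternatives. With shared reads counted once the log2 fold change was 1.55 (95% interval 0.57 to 2.54, adjusted p = 0.148 by edgeR), and the groups overlapped, at 3.20 to 8.62 against 0.524 to 3.71 CPM. MIT-Empty replicate 3, at 3.71 CPM once its shared reads were removed, was then above MIT-BATF replicates 1 and 5. The adjusted p by edgeR was 0.0700 without MIT-BATF replicate 2, 0.0593 without MIT-BATF replicate 3, 0.0536 without MIT-BATF replicate 4 and 0.0576 without MIT-Empty replicate 2. Rara was lowest in MIT-Empty replicate 4, the shallowest library, where 3 counts stand for 0.485 CPM. That library also had the highest melanoma marker sum, 1738 CPM, and MIT-Empty replicate 2 the next, 577 CPM. Without these 2 libraries the log2 fold change of Rara was 1.44 (adjusted p = 0.101 by edgeR).

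**Figure D3:**
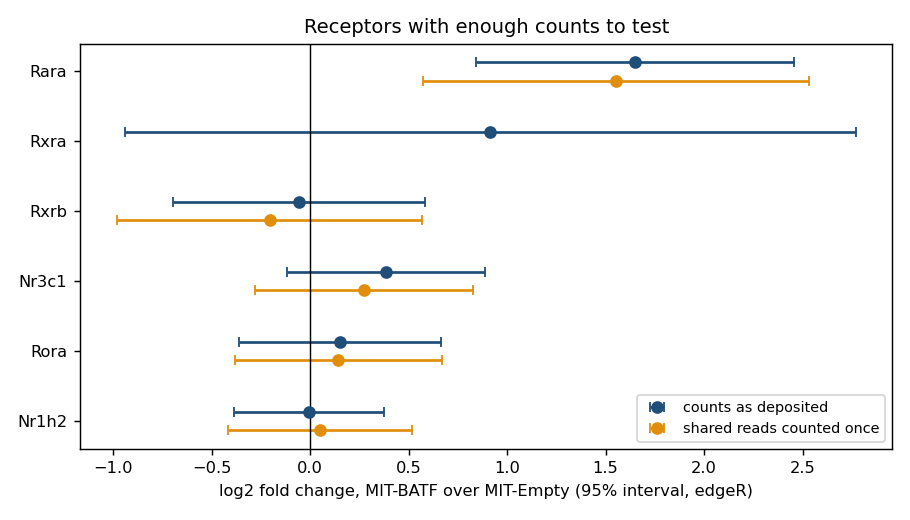
Log2 fold change of MIT-BATF over MIT-Empty (horizontal axis) with its 95% interval from edgeR for the 6 tested receptors, in the deposited counts (blue) and with shared reads counted once (orange, in which Rxra had too few counts). The interval of Rara lies above 0 in both (0.84 to 2.46 and 0.57 to 2.54), and those of the other receptors include 0.

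The reads of Rara came from several annotated starts, and Salmon's split of them among isoforms was not steady. The isoform Rara-202, which starts at 98960412, was given 29.4% to 69.3% of a library's Rara counts under MIT-BATF and 0% to 100% under MIT-Empty, so isoform use was not compared. Among starts in RefSeq (promoters of GRCm38.p6), 8 of the 10 receptors had an entry, with 14 start windows in all. Because Rara was the receptor past the threshold, the 250 bases before its starts at 98937696 and 98939711 are shown, with those before the start of its relative Rarg at 102257522 for comparison. They lie at chr11:98937446-98937695 and chr11:98939461-98939710 on the forward strand, and at chr15:102257523-102257772 on the reverse strand. Capitals mark GC boxes (GGGCGG on either strand) and matches to AGGTCA on either strand.
Rara, start at 98937696: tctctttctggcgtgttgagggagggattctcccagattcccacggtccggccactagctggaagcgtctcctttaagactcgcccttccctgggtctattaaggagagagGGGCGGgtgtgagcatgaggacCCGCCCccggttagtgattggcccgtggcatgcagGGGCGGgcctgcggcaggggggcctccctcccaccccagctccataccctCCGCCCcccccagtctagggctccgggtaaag
Rara, start at 98939711: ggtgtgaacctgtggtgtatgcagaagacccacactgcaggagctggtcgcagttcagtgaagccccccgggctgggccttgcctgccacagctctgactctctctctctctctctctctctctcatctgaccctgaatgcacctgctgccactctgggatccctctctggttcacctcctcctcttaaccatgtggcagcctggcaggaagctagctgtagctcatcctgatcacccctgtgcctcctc
Rarg, start at 102257522: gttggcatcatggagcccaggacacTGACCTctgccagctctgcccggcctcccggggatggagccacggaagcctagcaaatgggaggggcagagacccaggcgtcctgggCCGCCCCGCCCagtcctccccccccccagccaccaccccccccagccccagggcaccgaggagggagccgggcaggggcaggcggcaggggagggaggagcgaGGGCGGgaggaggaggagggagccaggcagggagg

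The window before the Rara start at 98937696 held 4 GC boxes and was 65.2% G and C, and the one before the start at 98939711 held 0 and was 58.8% G and C. Windows before the other RefSeq starts of Rara, at 98937718 and 98964872, are not shown and held 4 and 1 GC boxes. No RefSeq start lay at 98960412, where Rara-202 begins. The Rarg window shown held 3 GC boxes, 2 of which overlap, and 1 AGGTCA match 225 bases before its start. The window before the other Rarg start, at 102246500, held 0 of both motifs, and it is there that Rarg-202 begins, which took a median of 100% of Rarg counts under MIT-BATF and 64.1% under MIT-Empty. GC boxes were present in 9 of the 14 receptor windows and in 32.7% of all 32851 RefSeq windows of this length. AGGTCA was in 2 of the 14 and in 14.0% of all. The 14 windows are not all separate, as those before the Rara starts at 98937696 and 98937718 overlap. The AP-1 motif TGANTCA, the kind of letters to which BATF binds with its JUN partners, was in 6.75% of all windows and in 0 of the 14 receptor windows. A retinoic acid response element in its strict direct-repeat form, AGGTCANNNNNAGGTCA, was in 0.00913% of all windows and in 0 of the 14. An absent match says only that these letters are not in these windows.

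The other retinoid receptors gave no call. Rarg, a second receptor for retinoic acid that is known mainly from epithelia, held 5, 12, 30, 4 and 18 counts under MIT-BATF and 1, 13, 18, 3 and 0 under MIT-Empty, too few to test. Rxra, a shared DNA-binding partner, held 0, 29, 31, 23 and 4 counts under MIT-BATF and 8, 9, 8, 4 and 0 under MIT-Empty. The groups overlapped, and each had 1 library without a count, in which a count of 0 allows up to 0.263 CPM (MIT-BATF replicate 1) and 0.249 CPM (MIT-Empty replicate 5). The log2 fold change of Rxra was 0.91 with a 95% interval from -0.94 to 2.77 (adjusted p = 0.643 by edgeR), so neither a rise nor a fall of up to that size was detectable at this depth. It turned to -0.65 with transcript length offsets and fell to 0.30 without MIT-BATF replicate 4. Rxrb, the retinoid X receptor with the highest TPM here, was at 3.21 ± 0.873 CPM under MIT-BATF and 3.29 ± 0.832 CPM under MIT-Empty (SD, n = 5), with a log2 fold change of -0.06 (95% interval -0.70 to 0.58, adjusted p = 0.952 by edgeR). Its highest library was MIT-Empty replicate 2 at 4.67 CPM and its lowest MIT-BATF replicate 5 at 1.99 CPM.

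Rara was set against its family within each library, as the log2 ratio of CPM + 0.5. The added 0.5 keeps part of the scaling between libraries in the ratio, most where the other receptor is low. Mean CPM under MIT-BATF and MIT-Empty was 0.60 and 0.40 for Rarg and 0.87 and 0.48 for Rxra, near the added 0.5. The ratios to Rarg and Rxra therefore partly restate the CPM of Rara itself. In MIT-Empty replicate 5, where neither had a count, both ratios were 1.93. The ratio of Rara to Rarg was 1.89, 2.86, 2.44, 2.79 and 1.37 in replicates 1 to 5 under MIT-BATF and 1.66, 0.91, 1.26, 0.00 and 1.93 under MIT-Empty. The groups overlapped at MIT-BATF replicates 1 and 5, and the difference of the means was 1.12 (exact two-sided permutation test, p = 0.0397, adjusted over 2 ratios 0.0556). The ratio of Rara to Rxra differed by 1.15 (exact permutation p = 0.0556, adjusted 0.0556), with 1.17 to 2.80 under MIT-BATF and -0.22 to 1.93 under MIT-Empty. The smallest p that this design allows is 0.00794, and with shared reads counted once both adjusted values were 0.0635. Neither ratio thus passed the threshold after adjustment.

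The remaining 7 of 9 ratios are given without a test. Rara to Rxrb ran from -0.20 to 0.97 under MIT-BATF and from -1.72 to -0.40 under MIT-Empty. These ranges did not overlap. With shared reads counted once they nearly met, with a lowest value of -0.205 under MIT-BATF and a highest of -0.244 under MIT-Empty. The ratios to Vdr and Ppard also did not overlap in the deposited counts, but they did with shared reads counted once. Under MIT-BATF the mean was 0.11 CPM for Vdr and 0.52 CPM for Ppard, so the added 0.5 weighs on these ratios as well. Against Nr1h2, the most abundant receptor, Rara differed by 1.47 (-2.46 to -1.01 against -3.58 to -2.29) with an overlap. As a share of the TPM of all 10 receptors, Rara took 7.51% ± 2.73 under MIT-BATF and 2.46% ± 1.07 under MIT-Empty (SD, n = 5).

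**Figure D4:**
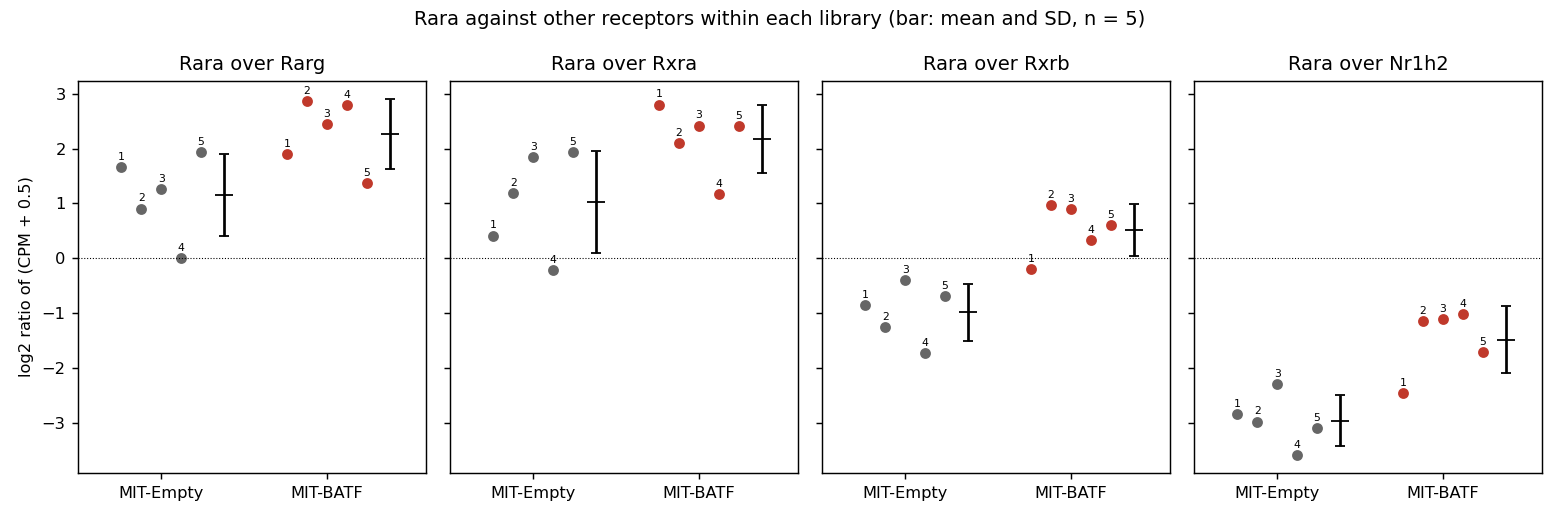
Log2 ratio of Rara to Rarg, Rxra, Rxrb and Nr1h2 (vertical axis, CPM + 0.5) in each library, with replicate numbers and the mean and SD of 5 libraries. The ratio to Rxrb is the one of these 4 whose groups do not overlap, with all 5 MIT-Empty libraries below 0.

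Nr3c1, the glucocorticoid receptor, was among the 2 receptors with the most counts. It lies on chromosome 18, from 39410545 to 39519421 on the reverse strand. Replicates 1 to 5 held 48.3, 27.4, 34.5, 27.9 and 30.4 CPM under MIT-BATF and 39.6, 25.2, 28.6, 14.5 and 20.7 CPM under MIT-Empty. The groups overlapped, and replicate 1 was the highest in both. The log2 fold change was 0.39 (95% interval -0.12 to 0.89, adjusted p = 0.433 by edgeR), and 0.27 with shared reads counted once. The isoform Nr3c1-204 took a median of 99.1% of its counts under MIT-BATF and 98.8% under MIT-Empty.

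The machinery around the glucocorticoid receptor gave 1 call in edgeR. Of its 7 chaperones 0 passed in edgeR, DESeq2 or limma, and 0 had an unadjusted p under 0.05, with a median log2 fold change of -0.02. They included Fkbp5, a co-chaperone that glucocorticoids induce, at 8.89 ± 2.62 CPM under MIT-BATF and 6.85 ± 1.90 CPM under MIT-Empty, and Hsp90aa1 at 667 ± 152 and 742 ± 122 CPM. Of 15 glucocorticoid target genes 12 were tested, with 1 higher, 0 lower and a median of -0.10 in edgeR, while DESeq2 called 2 and limma 3. The share called by edgeR over all genes tested was 4.58%, or 540 genes, against 1253 genes called by DESeq2 and 1336 by limma. The 1 called by edgeR was Tsc22d3, which encodes the glucocorticoid-induced leucine zipper protein. Its replicates 1 to 5 held 77.3, 78.9, 72.1, 64.9 and 70.1 CPM under MIT-BATF and 47.8, 43.6, 46.7, 39.4 and 44.9 CPM under MIT-Empty. These groups did not overlap, and Tsc22d3 passed both in the deposited counts (log2 fold change 0.71, adjusted p = 0.00416 by edgeR) and with shared reads counted once (0.73, adjusted p = 0.0333 by edgeR). Il7r, the interleukin 7 receptor gene, was at 244 ± 48.1 against 161 ± 29.2 CPM (adjusted p = 0.0599 by edgeR), Nfkbia, an inhibitor of NF-kappa-B, at 174.5 ± 19.98 against 130 ± 31.9 CPM, and Sgk1, a kinase, at 19.7 ± 4.14 against 16.0 ± 3.89 CPM. Glucocorticoid exposure was not measured, and Tsc22d3 is also known as a target of FOXO factors.

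Rora, an orphan receptor that drives clock genes and marks some tissue lymphocytes, had the most counts of the 10 genes and no difference beyond its spread. It lies on chromosome 9, from 68653786 to 69388246 on the forward strand. An antisense gene, Gm15511, overlaps it, and reads of a stretch that both hold cannot be told apart without strand. Replicates 1 to 5 held 75.1, 64.3, 40.4, 66.5 and 32.6 CPM under MIT-BATF and 36.1, 51.8, 62.1, 35.6 and 64.3 CPM under MIT-Empty. Both groups spread over about the same range, with MIT-BATF replicate 5 the lowest and replicate 1 the highest of all. The log2 fold change was 0.15 (95% interval -0.36 to 0.66, adjusted p = 0.805 by edgeR). The isoform Rora-201 took a median of 97.2% of the counts under MIT-BATF and 90.9% under MIT-Empty. Of 13 clock genes controlled by ROR and REV-ERB receptors 11 were tested and 0 passed in edgeR, DESeq2 or limma (median -0.04, with 2 at an unadjusted p under 0.05). Dbp, a clock output factor, was at 0.463 ± 0.333 against 1.56 ± 0.518 CPM (adjusted p = 0.140 by edgeR), and Cry2, a clock repressor, at 2.26 ± 0.867 against 1.075 ± 0.674 CPM (adjusted p = 0.264).

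Nr1h2 encodes the liver X receptor that senses oxidized cholesterol in lymphocytes, and it had the smallest relative spread of the 6 tested receptors, with an SD of 19.8% of the mean under MIT-BATF and 14.5% under MIT-Empty. It lies on chromosome 7, from 44549616 to 44553951 on the reverse strand. Replicates 1 to 5 held 18.7, 15.3, 13.6, 11.9 and 11.9 CPM under MIT-BATF and 13.6, 16.6, 14.0, 11.3 and 15.9 CPM under MIT-Empty, with nearly the same mean (14.3 ± 2.83 and 14.3 ± 2.07 CPM). Its log2 fold change was -0.01, and the 95% interval of -0.39 to 0.37 bounds a change in either direction (adjusted p = 0.990 by edgeR). Nr1h3, the other liver X receptor, had 22 counts in all 10 libraries.

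Of 11 liver X receptor target genes 9 were tested, with 1 higher, 1 lower and a median of 0.22 in edgeR. The share called over all genes tested was 4.58%. An unadjusted p under 0.05 was found for 4 of the 9. With shared reads counted once, 0 passed as higher and 1 as lower. Arl4c, a small GTPase induced by liver X receptors, ranged from 8.68 to 15.7 CPM under MIT-BATF and from 4.65 to 7.53 CPM under MIT-Empty (log2 fold change 1.00, adjusted p = 0.0158 by edgeR), and its adjusted p rose to 0.0950 when shared reads were counted once. Apoe, a lipid carrier that macrophages are among the cells to make, was at 0.979 to 3.77 CPM under MIT-BATF and 2.07 to 49.8 CPM under MIT-Empty (log2 fold change -3.35, adjusted p = 0.00710 by edgeR, and 0.0331 with shared reads counted once), and MIT-Empty replicate 5 overlapped the other group. Apoe also stands in the macrophage marker list, of which 9 of 10 tested genes had a negative log2 fold change. Of these 10, edgeR called 3, DESeq2 4 and limma 6, with overlapping sums as given above. The part of macrophages in the values of Apoe was not tested. The cholesterol exporter Abcg1 was at 3.98 ± 2.06 against 1.83 ± 0.695 CPM (adjusted p = 0.136 by edgeR), and Scd2, a fatty acid desaturase, at 22.3 ± 4.88 against 53.5 ± 47.8 CPM (adjusted p = 0.112).

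The last 3 receptors were too low to test. Vdr, the vitamin D receptor, which activated T cells are known to induce, had 2, 4, 1, 2 and 0 counts under MIT-BATF and 0, 0, 2, 0 and 2 under MIT-Empty. Thra had 5, 5, 9, 4 and 0 counts under MIT-BATF and 3, 5, 5, 2 and 0 under MIT-Empty, and Ppard, a regulator of fatty acid oxidation, had 4, 13, 39, 2 and 12 against 4, 7, 15, 2 and 1. In all 3 the groups overlapped in CPM, and a difference was not detectable at this depth. A count of 0 allowed 0.0695 to 0.485 CPM, depending on the library. Thra also overlaps Nr1d1, on the opposite strand, at their ends, from 98767932 to 98769006. Reads of that stretch cannot be told apart without strand.

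Genes around these receptors gave no call in edgeR. For vitamin D, 3 of 8 metabolism and target genes were tested (median -0.37), among them Cd14 at 0.431 ± 0.471 against 2.39 ± 1.17 CPM (adjusted p = 0.0599 by edgeR), which is also a macrophage marker and was called by DESeq2 and limma. For thyroid hormone, 2 of 10 genes were tested (median 0.24), the transporter Slc16a10 at 3.26 ± 1.19 against 2.07 ± 0.683 CPM and the target Klf9 at 1.26 ± 0.580 against 1.42 ± 0.579 CPM, with 0 called by any of the 3 tools and 0 at an unadjusted p under 0.05. For the peroxisome proliferator-activated receptors, 11 of 14 target genes were tested (median -0.09), among them Cpt1a, the carnitine palmitoyltransferase that starts fatty acid oxidation, at 29.1 ± 7.32 against 21.2 ± 4.43 CPM (adjusted p = 0.242 by edgeR), the 1 gene at an unadjusted p under 0.05, and 0 were called by any of the 3 tools.

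Retinoic acid supply and response showed 1 call. Of 24 genes for retinoid uptake, storage, oxidation and breakdown, 13 were tested and 0 passed in edgeR or DESeq2, with a median log2 fold change of 0.38 against 0.01 over all genes tested, and 2 had an unadjusted p under 0.05. Dgat1, an acyltransferase that also makes retinyl esters, was at 158 ± 42.4 CPM under MIT-BATF and 97.6 ± 33.4 CPM under MIT-Empty (adjusted p = 0.140 by edgeR, and the 1 gene of the list that limma called), and Fabp5, a fatty acid and retinoic acid carrier, at 119 ± 28.7 and 160 ± 28.6 CPM (adjusted p = 0.221). Crabp2, the carrier that hands retinoic acid to its receptors, was at 9.92 ± 4.13 and 6.21 ± 4.12 CPM. Aldh1a1 and Aldh1a2, which make retinoic acid, had 17 and 6 counts in all, and the degrading enzymes Cyp26a1, Cyp26b1 and Cyp26c1 had 5, 7 and 4.

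Of 14 retinoic acid target genes 5 were tested, with 1 higher, 0 lower and a median of 0.19 in edgeR. The share called over all genes tested was 4.58%. The 1 was Itgb7, the integrin beta chain of the gut-homing receptor. It ranged from 27.1 to 35.2 CPM under MIT-BATF and from 16.0 to 23.0 CPM under MIT-Empty, without overlap (log2 fold change 0.59, adjusted p = 0.0335 by edgeR, and 0.230 with shared reads counted once). Its partner chain Itga4 was at 82.2 ± 22.0 and 86.5 ± 16.2 CPM (adjusted p = 0.886 by edgeR), and the gut-homing chemokine receptor Ccr9 had 97 counts in all. Dhrs3, a retinaldehyde reductase that retinoic acid induces, was at 0.694 ± 0.607 and 1.66 ± 0.863 CPM (adjusted p = 0.364 by edgeR).

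All 19 coactivator and corepressor genes were tested and 0 passed in edgeR (median -0.06), while 2, Ncoa6 and Carm1, had an unadjusted p under 0.05 and were called by DESeq2 and limma. Ncoa6, a coactivator shared by many receptors, came nearest at 12.2 ± 1.44 CPM under MIT-BATF and 6.92 ± 2.13 CPM under MIT-Empty, without overlap (log2 fold change 0.81, adjusted p = 0.0682 by edgeR). Carm1, an arginine methyltransferase that joins coactivator complexes, was at 0.502 ± 0.365 and 2.13 ± 1.79 CPM (adjusted p = 0.103 by edgeR), and Prmt1, a related methyltransferase, at 4.22 ± 1.59 and 6.21 ± 1.97 CPM.

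Among the whole nuclear receptor superfamily of 49 genes, 16 were tested, with 1 higher (Rara), 1 lower and a median log2 fold change of 0.38 in edgeR. DESeq2 called 4 of these 16 and limma 3. Over all genes these 2 tools called more as well, 1253 and 1336 against 540 by edgeR. Once shared reads entered a single time, 15 of the superfamily were tested and none passed in edgeR. Of these, 3 had an unadjusted p under 0.05 and DESeq2 called 1, where its total over all genes was 389 against 140 for edgeR. The 1 lower gene in the deposited counts was Nr4a3, an orphan receptor induced by T cell receptor signaling. Its replicates 1 to 5 held 108, 121, 79.8, 93.3 and 82.0 CPM under MIT-BATF and 151, 141, 172, 135 and 129 CPM under MIT-Empty, without overlap (log2 fold change -0.59, adjusted p = 0.0371 by edgeR, and 0.224 with shared reads counted once). Its relatives Nr4a1 and Nr4a2 were at 20.3 ± 7.67 against 20.1 ± 5.77 CPM and 88.8 ± 30.6 against 90.4 ± 10.8 CPM. Whether Nr4a3 differed in its change from these was not tested. The germ cell nuclear factor Nr6a1 was at 8.01 ± 2.05 against 4.09 ± 1.43 CPM (adjusted p = 0.0700 by edgeR), and the orphan receptor Nr2c1 at 3.78 ± 1.09 against 2.20 ± 0.476 CPM (adjusted p = 0.194 by edgeR). No count at all was found for 2 of the 49, Hnf4g and Nr0b1.

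**Figure D5:**
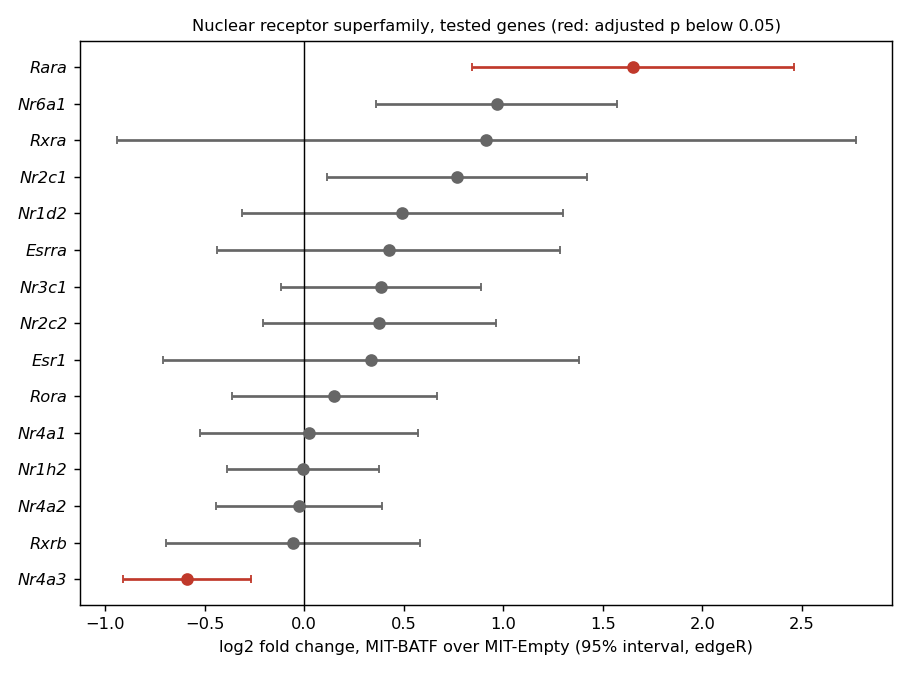
Log2 fold change of MIT-BATF over MIT-Empty (horizontal axis) with its 95% interval from edgeR for 15 of the 16 tested genes of the nuclear receptor superfamily, in the deposited counts. Rara is the highest and Nr4a3 the lowest, and these 2 (red) passed the threshold.

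The genes whose log2 CPM followed that of Rara most closely over the 10 libraries were Spata13 (Pearson r = 0.973), Tent5a (0.968), Jarid2 (0.955) and Ece1 (0.953). They were the highest among 6244 protein-coding genes whose mean log2 CPM reached 3, with predicted genes, pseudogenes and receptor segments left out. The values are descriptions, since the genes were picked by r on these same libraries, which share reads, depth and group labels. After the group means were removed, the values of these picked genes were 0.946, 0.897, 0.871 and 0.900. Of the 4, Tent5a, a poly(A) polymerase gene, passed the threshold between the groups in the deposited counts (71.4 ± 8.59 against 33.6 ± 7.96 CPM, adjusted p = 0.00303 by edgeR).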

How the data were processed

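The authors sequenced SMART-Seq2 libraries as 37 bp read pairs and deposited Salmon output per library (mm10), holding estimated counts and TPM per transcript. Sources used here name no Salmon version. The names of the deposited tables carry a further number per replicate whose meaning is not given, and it was not used. Some genes are not reported here. The protocol does not mark strand.

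Estimated counts of 112092 transcripts were summed per gene with GENCODE names on GRCm38 and rounded, leaving out 305 unmatched transcripts (0.0617% to 0.0890% of a library's counts). The test was that of edgeR 4.0.16 (quasi-likelihood, TMM, filterByExpr, Benjamini-Hochberg over all genes tested, threshold 0.05) in R 4.3.3, with condition as the only term and 5 libraries per group. The script was tested on simulated data. Containment was set as an excess over the other library in under 1% of the genes holding 5 or more counts. Ratios used CPM + 0.5 and exact permutation tests (scipy 1.17.1). The 95% intervals come from the edgeR fit and include the spread between libraries, while the limit of a count of 0 (3 counts) covers counting error only. Alternatives were DESeq2 1.42.0, limma 3.58.1, other normalizations and filters, transcript length offsets, a replicate block and left-out libraries. The receptors and gene lists were chosen with earlier results of these data known. The text names the 10 receptors with Rarb and Rxrg, per list the genes past the threshold and some of the up to 4 next by p, the 4 genes most correlated with Rara, Batf, Thy1, and per marker list the most abundant gene and any at 0. Aldh1a1, Aldh1a2, the Cyp26 genes, Ccr9, Sgk1, Nr1h3, Nr4a1, Nr4a2, Hnf4g, Nr0b1, Xcr1, Itgax, Clec9a, Flt3 and Dcn were added after their values were seen.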

Additional observations from a re-analysis of the deposited data

How the results depend on the processing

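Rara kept its direction under all 24 alternatives (log2 fold change 1.44 to 1.91) and its call under 15, among them DESeq2 (adjusted p = 0.000520). It missed the threshold, leaving 0 receptors called, with shared reads counted once (1.55, 140 genes called), without the contained libraries (1.501, 96 genes), without the containing libraries (1.78, 15 genes), without MIT-Empty replicates 2 and 4 (1.44, 259 genes) and, as an alternative added after seeing the data, with shared reads counted once and a replicate block (1.62, 174 genes). Leaving out single libraries gave 1.47 to 1.91 for Rara, 0 to 1 receptors and 287 to 772 genes. Against 540 genes called, DESeq2 gave 1253, no filter 903 and limma voom with quality weights 1336. Fewer libraries or fewer reads enter the fits that lost the call. Some fits with fewer libraries kept it, such as that without MIT-BATF replicate 1 (adjusted p = 0.0123 by edgeR). Why the call was lost in some fits was not tested.

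The ratio of Rara to Rarg lost p below 0.05 with a pseudocount of 0.1 (0.93), without contained (1.12) or containing libraries (0.82), where the smallest p possible is 0.1, without MIT-Empty replicates 2 and 4 (0.65) and without 6 of 10 single libraries (0.83 to 1.34 over all). The ratio to Rxra passed in the authors' TPM (1.20) and without some single libraries (0.83 to 1.399 over all). The groups share replicate numbers, but same-numbered libraries deviated together by -0.046 to 0.222 in correlation, so the numbers were not taken as a pairing. Replicates 1 and 3 did correlate best with their own number, and the same numbers were contained in both groups. A processing step shared by number was not tested. With a replicate block Rara was at 1.69 (adjusted p = 0.0422 by edgeR), 474 genes were called and the ratio to Rarg kept 1.12 with an exact p of 0.188, in a design that cannot reach the threshold.

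Directions near 0 reversed without a call. Nr1h2 turned to 0.00116 with DESeq2, 0.00421 without mitochondrial genes, 0.0417 with no filter, 0.0631 with length offsets, 0.0486 with shared reads counted once (0.0588 by DESeq2, 0.0522 with a replicate block), 0.13 and 0.0621 without contained or containing libraries, and up to 0.0569 without single libraries (from -0.11). Rxrb turned to 0.24 without the containing libraries, 0.0830 without MIT-Empty replicates 2 and 4 and up to 0.11 without single libraries (from -0.18). Rxra turned to -0.65 with length offsets. Depth limits Rarg, Vdr, Thra and Ppard, which could not be tested.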

Other observations

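Markers of other cells that a Thy1.1 sort could hold also differed between the labels. Of the dendritic cell markers 2 of 3 tested were higher under MIT-BATF, Xcr1 (11.4 ± 2.59 against 2.75 ± 0.815 CPM) and Itgax (4.15 ± 1.20 against 1.18 ± 0.759 CPM), and with shared reads counted once the call of Xcr1 held (adjusted p = 0.00884 by edgeR) and that of Itgax did not (0.193). The most abundant of them, Zbtb46, went the other way, at 5.96 ± 2.31 against 9.53 ± 2.33 CPM. It was not called by edgeR but had an unadjusted p under 0.05 by edgeR, and limma called all 3. Clec9a and Flt3 had 18 and 54 counts in all and Cd209a none. Cd79b, a B cell marker, was higher (3.20 ± 0.967 against 0.932 ± 0.343 CPM), with an adjusted p of 0.128 by edgeR when shared reads were counted once. Dcn, a fibroblast marker, was lower (0.202 ± 0.186 against 4.33 ± 4.16 CPM), and Pecam1, the most abundant of its list, was at 8.78 ± 2.37 against 11.99 ± 2.59 CPM. Neither Cxcr2, the 1 neutrophil marker tested (4.59 ± 1.4 against 3.14 ± 1.57 CPM), nor any of 4 erythroid markers, led by Hba-a2, passed in edgeR, DESeq2 or limma, with 1 erythroid marker at an unadjusted p under 0.05. Erythroid markers summed to up to 489 CPM under MIT-BATF and 72.9 CPM under MIT-Empty. The part of these cells in the receptor values was not tested.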
